A study of Homo sapiens with 8 samples.

Results

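The genes described here are 46 genes of DNA damage signalling and repair, taken by symbol from a table of 17056 genes. They were chosen as a list of names and sorted by role: 25 genes of double-strand break signalling and repair, 5 Fanconi genes, 3 of mismatch repair, 10 of excision repair and 3 of lesion bypass. All 46 were in the table, and 45 had a mean of at least 1 FPKM (fragments scaled by gene length and library size) over the 8 libraries and were tested. The exception was ERCC5, which was low in every library. The cells were A549, an established human lung adenocarcinoma line. RNA came from 4 groups of 2 libraries: OE (AFAP1-AS1 overexpression), ASO (knockdown of AFAP1-AS1), ASONC (the negative control of the knockdown) and Vector (the control of the overexpression). AFAP1-AS1 is a long non-coding RNA. The labels name no clone, dose or time, and no treatment with a DNA-damaging agent. AFAP1-AS1 itself was not analysed here, so its level in each group is not given. All groups share the line. The labels do not tell whether the 2 libraries of a group were grown separately, so the p-values rest on a spread that may be only technical.

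A double-strand break is sensed by the MRN complex and by the kinases ATM and ATR, which signal through CHEK1 and CHEK2 to halt the cell cycle. The break is then either resealed directly by end joining or copied from the sister chromatid by homologous recombination, which is largely limited to S and G2 phase. Fanconi proteins unhook crosslinks between strands, mismatch and excision repair replace wrong or damaged bases, and bypass polymerases copy past lesions. Many platinum and alkylating drugs used in lung cancer act through lesions handled by these pathways.

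Depth was similar in all libraries: whole reads recovered from the FPKM steps summed to between 33359120 and 37172055. The 2 libraries of each group had an r across genes of 0.9973 to 0.9977. Genes at 0 numbered 1435 and 1341 in the ASONC libraries and 2205 to 2327 elsewhere. KRT8, KRT18 and KRT7, keratins of epithelial cells, stood between 956 and 1340 FPKM in every library, while EPCAM, an epithelial adhesion gene, stayed between 0.386 and 0.862 FPKM. The keratins were higher in every ASO and ASONC library than in any OE or Vector library. The other epithelial markers, CDH1, AKR1C1 and AKR1B10, were lower there. CDH1 was at 0.841 to 1.78 FPKM in ASO and ASONC and at 3.55 to 4.42 in OE and Vector. Of 9 markers of other cell types in the table, PTPRC, the leukocyte marker, was at 0 in 7 libraries and at 0.00429 FPKM in the other. COL1A1 had 2.5 and 2.41 FPKM in ASONC, 1.87 and 2.05 in ASO, and 0.463 to 0.591 in OE and Vector. CD79A had 3.33 and 3.06 FPKM in ASONC, 0.901 and 0.741 in ASO, and 0.141 to 0.459 in OE and Vector. PECAM1 and VWF went the other way, with at most 0.126 FPKM in ASO and ASONC and at least 0.352 in OE and Vector. The summed level of those 9 was 68.4 and 67.2 FPKM in ASO and 95.4 and 95.8 in ASONC, against 50.7 and 52.4 in OE and 51.0 and 52.3 in Vector, most of it CD68, a lysosomal protein gene that many cells express. Their part in the results was not tested. In bulk RNA, fewer cells that express a gene and less RNA per cell cannot be told apart.

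Levels of the repair genes spanned a wide range on the FPKM scale, which divides by gene length. Ranking genes on it is rough, since differences between libraries still went with length and GC content, as described further on. XRCC6, which encodes the Ku70 subunit that caps broken ends, was highest in every library, at 218 to 233 FPKM. By the mean over libraries XRCC5, the Ku80 subunit, came next at 131 to 180 FPKM, and then DDB2, a sensor of ultraviolet damage, at 61.2 to 98.9. FANCM, a crosslink repair helicase, and BRCA2, a mediator of homologous recombination, were the lowest genes tested, at 1.08 to 2.60 and 0.702 to 3.03 FPKM. The endonuclease gene ERCC5 had 0.140 to 0.328 FPKM, or 20 to 43 recovered reads. Its exons are shared with the readthrough gene BIVM-ERCC5 in GENCODE release 29, so its reads may have been split or dropped in counting.

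**Figure D1:**
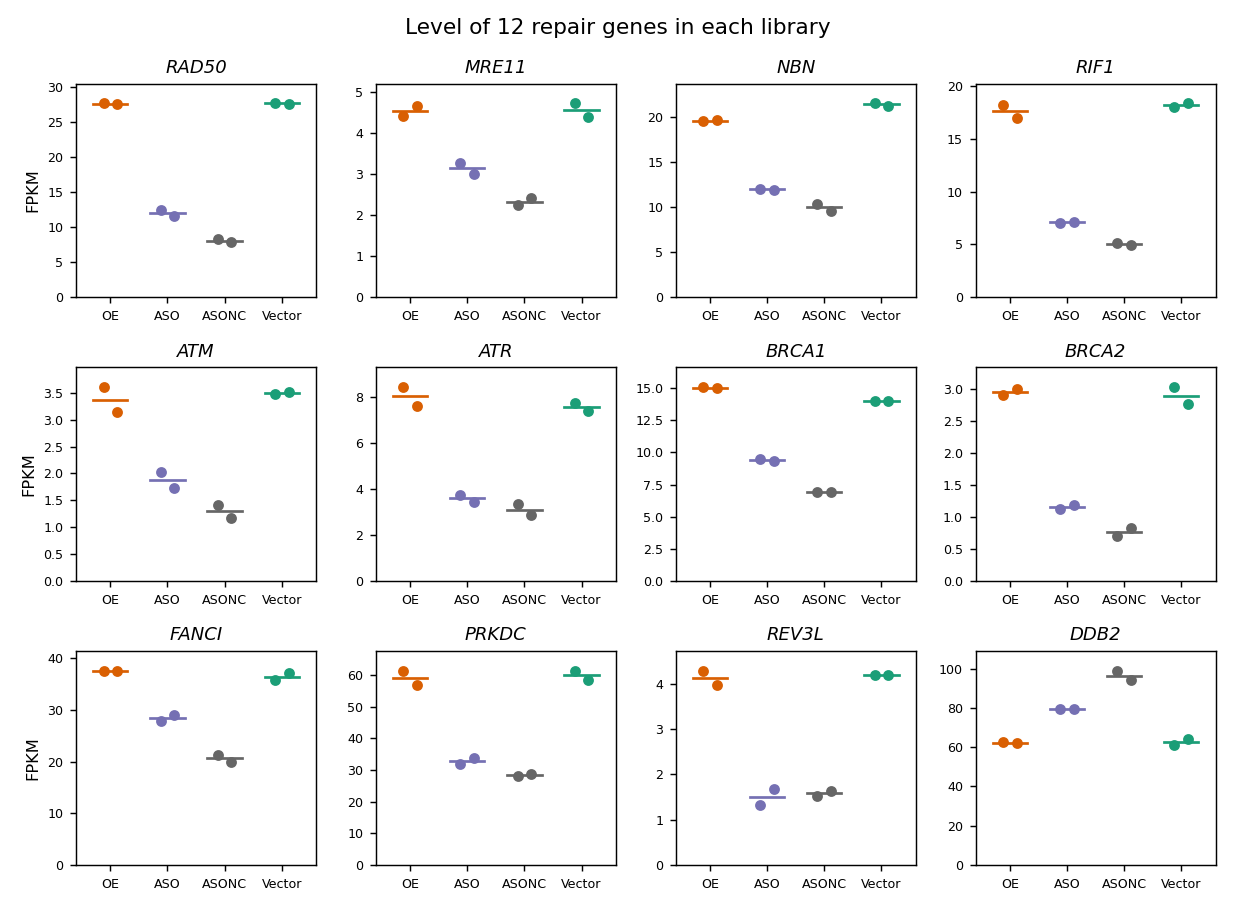
FPKM (vertical axis, from 0) of 12 repair genes in each of the 8 libraries, with a point per library and a line at the mean of each group of 2. In 11 of the 12 both ASO and both ASONC libraries lie below every OE and Vector library, and DDB2 has the opposite order.

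Upstream sequence is shown for the called genes at the ends of the range of change on the log2(FPKM + 1) scale in 2 comparisons: RAD50 and XPA, the largest rise and fall in ASO against ASONC, and DDB2 and RIF1, the largest rise and fall in ASONC against Vector. Each run is the 250 bases before the annotated start site, 5′ to 3′ on the strand of the gene, from RefSeq (GRCh38.p14). For DDB2, which has more than 1 start site listed, the first is shown. Capitals mark matches, on either strand, to the E2F-type letters TTCCCGC or TTGGCGC or TTCGCGC or TTGCCGC, the CHR-type letters TTTGAA, the letters CCAAT, or the GC box GGGCGG.
RAD50 (chr5:132556727-132556976, plus strand): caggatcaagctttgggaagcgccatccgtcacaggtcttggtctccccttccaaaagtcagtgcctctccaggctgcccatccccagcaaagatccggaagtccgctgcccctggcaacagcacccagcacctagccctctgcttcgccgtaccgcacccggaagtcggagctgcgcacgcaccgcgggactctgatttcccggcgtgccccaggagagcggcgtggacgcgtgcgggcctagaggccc
XPA (chr9:97697341-97697590, minus strand): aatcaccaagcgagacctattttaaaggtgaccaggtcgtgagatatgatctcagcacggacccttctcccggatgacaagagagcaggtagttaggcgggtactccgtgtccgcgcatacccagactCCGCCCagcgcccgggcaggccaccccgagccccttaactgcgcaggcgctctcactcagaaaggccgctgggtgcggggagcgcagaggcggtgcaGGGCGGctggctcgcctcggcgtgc
DDB2 (chr11:47214204-47214453, plus strand): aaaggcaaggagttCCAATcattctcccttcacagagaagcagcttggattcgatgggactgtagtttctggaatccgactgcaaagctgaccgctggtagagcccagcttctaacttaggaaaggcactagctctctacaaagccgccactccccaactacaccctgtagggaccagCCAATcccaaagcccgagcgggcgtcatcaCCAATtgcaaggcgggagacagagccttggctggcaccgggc
RIF1 (chr2:151409652-151409901, plus strand): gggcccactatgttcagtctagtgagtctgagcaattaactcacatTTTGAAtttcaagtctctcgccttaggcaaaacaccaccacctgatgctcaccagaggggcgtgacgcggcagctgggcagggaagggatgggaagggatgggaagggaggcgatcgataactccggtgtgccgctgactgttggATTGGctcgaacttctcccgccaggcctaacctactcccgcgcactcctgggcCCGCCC
The RAD50 run held none of these letters, the XPA run 2 GC boxes, the DDB2 run 3 CCAAT matches, and the RIF1 run 1 each of CHR, CCAAT and GC box. Start sites were listed for 41 of the 46 genes, 59 sites in all. An E2F-type match stood at 27.1% of these sites and at 10.9% of all 35116 listed sites. CCAAT stood at 49.2% against 32.0%, the GC box at 67.8% against 42.6%, and the CHR letters at 8.5% against 13.3%. A match is a description of letters and not evidence that a factor binds there.

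Knockdown was compared with its own control to see how repair genes stood under the labelled knockdown of AFAP1-AS1. Repair genes were mostly higher in ASO than in ASONC: 17 of 45 rose and 3 fell (limma adjusted p below 0.05), against a background of 22.2% of 10648 genes called in either direction, 11.3% higher and 10.9% lower. Of the repair genes 44.4% were called. Their median log2 fold change was 0.17, with 35 of 45 above 0, beside 0.02 and 54.0% of all genes above 0. Of the rises, 13 were among break repair genes, 2 among Fanconi genes and 1 each in mismatch and excision repair, and all 3 falls were in excision repair. The median of the repair genes was 0.15 without ASO replicate 1 and 0.16 without ASO replicate 2. It was 0.16 without ASONC replicate 1 and 0.14 without ASONC replicate 2. In these fits the median of all genes lay between 0.014 and 0.019. Fewer repair genes, and fewer of all genes, were called in each of them. Such a fit has 1 library in that group, which is assumed to vary like the other groups.

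All 3 genes of the MRN complex, which tethers and trims broken ends, were called higher in ASO, and RAD50 was the 1 of the 3 still called after the length and GC correction described further on. RAD50, its ATPase arm, had 12.5 and 11.6 FPKM in ASO and 8.28 and 7.89 in ASONC. Its fold change was the largest of the repair genes on the log2(FPKM + 1) scale (0.52 ± 0.06, SE; limma adjusted p = 6.59e-05), while by ratio of mean FPKM BRCA2 was higher, at 1.51 times ASONC against 1.49 times for RAD50. MRE11, the nuclease, had 3.27 and 3.0 FPKM in ASO and 2.25 and 2.40 in ASONC (0.32 ± 0.08, limma adjusted p = 0.0151), and lost its call without ASO replicate 1 (limma adjusted p = 0.0957) or ASONC replicate 1 (0.0797). NBN, which links the complex to ATM, had 12 and 11.9 FPKM in ASO and 10.3 and 9.57 in ASONC (0.25 ± 0.05, limma adjusted p = 0.00715), and lost its call without ASONC replicate 2 (limma adjusted p = 0.0596). In each of the 3 genes both ASO libraries lay above both ASONC libraries. With 2 libraries a group this is common. The groups did not overlap, in either direction, in 32 of the 45 repair genes here. In OE against Vector they did not overlap in 17. The share over all genes was not counted. The exons of RAD50 overlap those of the unnamed transcript AC116366.3 over 7784 bases on the same strand, so reads could have been assigned to either.

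Among the 7 signalling genes 4 rose and 0 fell. RIF1, which shields ends from trimming, had 7.01 and 7.16 FPKM in ASO and 5.09 and 4.95 in ASONC (0.43 ± 0.06, limma adjusted p = 0.000449). TP53BP1, its partner at breaks, averaged 5.98 ± 0.198 FPKM in ASO and 4.82 ± 0.307 in ASONC (SD, n = 2 each). Its log2 fold change of 0.26 (limma adjusted p = 0.0292) was not called without ASO replicate 1 (limma adjusted p = 0.133), ASO replicate 2 (0.0786) or ASONC replicate 2 (0.168). ATM had 2.03 and 1.73 FPKM in ASO and 1.42 and 1.17 in ASONC (0.33 ± 0.10, limma adjusted p = 0.0305), and this call was lost without ASO replicate 1 (limma adjusted p = 0.172), ASO replicate 2 (0.051) or ASONC replicate 2 (0.188). CHEK1, the kinase downstream of ATR, averaged 7.56 ± 0.0552 FPKM in ASO and 6.42 ± 0.529 in ASONC and passed narrowly (0.21, limma adjusted p = 0.0495). Its call was lost under 10 of 17 alternatives, among them the removal of any library but ASONC replicate 2. ATR had 3.76 and 3.43 FPKM in ASO and 3.33 and 2.87 in ASONC, which did not pass (0.17 ± 0.08, limma adjusted p = 0.176). The ASO libraries disagreed on CHEK2, the kinase downstream of ATM, with 4.98 and 3.30 FPKM in ASO and 3.48 and 3.65 in ASONC (0.15, limma adjusted p = 0.437), and without ASO replicate 2 it passed (0.39, limma adjusted p = 0.0419). CHEK2 has 4 like-named pseudogene copies in GENCODE, so its value is uncertain.

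Of the 10 homologous recombination genes 4 rose and 0 fell. BRCA1, the scaffold that promotes end trimming, had 9.49 and 9.35 FPKM in ASO and 6.90 and 6.96 in ASONC (0.39 ± 0.06, limma adjusted p = 0.000458). BRCA2 had 1.12 and 1.19 FPKM in ASO and 0.702 and 0.829 in ASONC (0.29 ± 0.09, limma adjusted p = 0.0377), and its call was lost without any one of the OE, ASO or ASONC libraries (limma adjusted p between 0.0506 and 0.174). RAD51AP1, which stimulates strand invasion, had 10.8 and 9.82 FPKM in ASO and 7.89 and 7.56 in ASONC (0.37, limma adjusted p = 0.00294). XRCC3, which acts in homologous recombination, also rose (0.27, limma adjusted p = 0.0397), but not without ASO replicate 1 (limma adjusted p = 0.252) or ASONC replicate 1 (0.277), and it shares 5756 exonic bases with its antisense neighbour KLC1. The other 6 genes had values between -0.03 for RAD51C and 0.21 for XRCC2. The partner of BRCA1, BARD1, stood at 0.17 (limma adjusted p = 0.102), and PALB2, which joins BRCA1 to BRCA2, at -0.01.

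Of the 5 end joining genes 2 rose. PRKDC, the large kinase subunit recruited by Ku, had 31.9 and 33.7 FPKM in ASO and 28.0 and 28.8 in ASONC (0.20 ± 0.05, limma adjusted p = 0.016), with its call lost without ASO replicate 2 (limma adjusted p = 0.123) or ASONC replicate 1 (0.0792). XRCC5 had 146 and 146 FPKM in ASO and 132 and 131 in ASONC (0.15 ± 0.03, limma adjusted p = 0.00931), and just missed the threshold without ASO replicate 1, ASO replicate 2 or ASONC replicate 2 (limma adjusted p between 0.0507 and 0.0563). Its partner XRCC6 averaged 225 ± 3.29 FPKM in ASO and 218 ± 0.479 in ASONC and was not called (0.04). The ligase LIG4 and its cofactor XRCC4 stood at 0.04 and -0.01.

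Of the 5 Fanconi genes 2 rose. FANCI, a subunit of the clamp that marks crosslinks, averaged 28.5 ± 0.731 FPKM in ASO and 20.6 ± 0.85 in ASONC (0.45 ± 0.05, limma adjusted p = 7.21e-05), with no overlap. Its clamp partner FANCD2 had 6.71 and 6.24 FPKM in ASO and 6.72 and 4.72 in ASONC, where the groups overlap (0.17, limma adjusted p = 0.303). BRIP1, a helicase that binds BRCA1, averaged 2.04 ± 0.143 FPKM in ASO and 1.45 ± 0.0154 in ASONC (0.32, limma adjusted p = 0.0209) and lost its call without any one of the ASO or ASONC libraries (limma adjusted p between 0.0517 and 0.119). Of the mismatch genes, MSH6, which recognises single mismatches, had 35.5 and 34.9 FPKM in ASO and 30.3 and 28.3 in ASONC (0.26, limma adjusted p = 0.00292). MSH3, which recognises loops, stood at 0.00, and PMS2, which cuts the new strand and has 11 like-named copies, at 0.23 (limma adjusted p = 0.0677).

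Excision repair held the genes that fell. DDB2 had 79.6 and 79.3 FPKM in ASO and 98.9 and 94.0 in ASONC (-0.28 ± 0.04, limma adjusted p = 0.000774). XPA, which checks the damaged strand, had 3.32 and 3.54 FPKM in ASO and 4.38 and 4.57 in ASONC (-0.31 ± 0.08, limma adjusted p = 0.0185), and its call was lost without any one of the ASO or ASONC libraries (limma adjusted p between 0.0519 and 0.10). ERCC1, a subunit of the nuclease that cuts 5′ of a lesion, averaged 15.1 ± 0.347 FPKM in ASO and 18.2 ± 0.446 in ASONC (-0.25, limma adjusted p = 0.0109), and lost its call without ASO replicate 2 (limma adjusted p = 0.076) or ASONC replicate 1 (0.0637). ERCC3, a helicase of TFIIH, went the other way with 28.8 and 29.2 FPKM in ASO and 25.4 and 25.6 in ASONC (0.18, limma adjusted p = 0.0196), and lost its call without any one of these 4 libraries (limma adjusted p between 0.0643 and 0.105). XPC, which senses distorted DNA, averaged 20.5 ± 0.664 FPKM in ASO and 22.7 ± 0.177 in ASONC without passing (-0.14, limma adjusted p = 0.0814). The bypass polymerase genes POLH, REV1 and REV3L stood at 0.04, 0.04 and -0.04, and none was called.

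**Figure D2:**
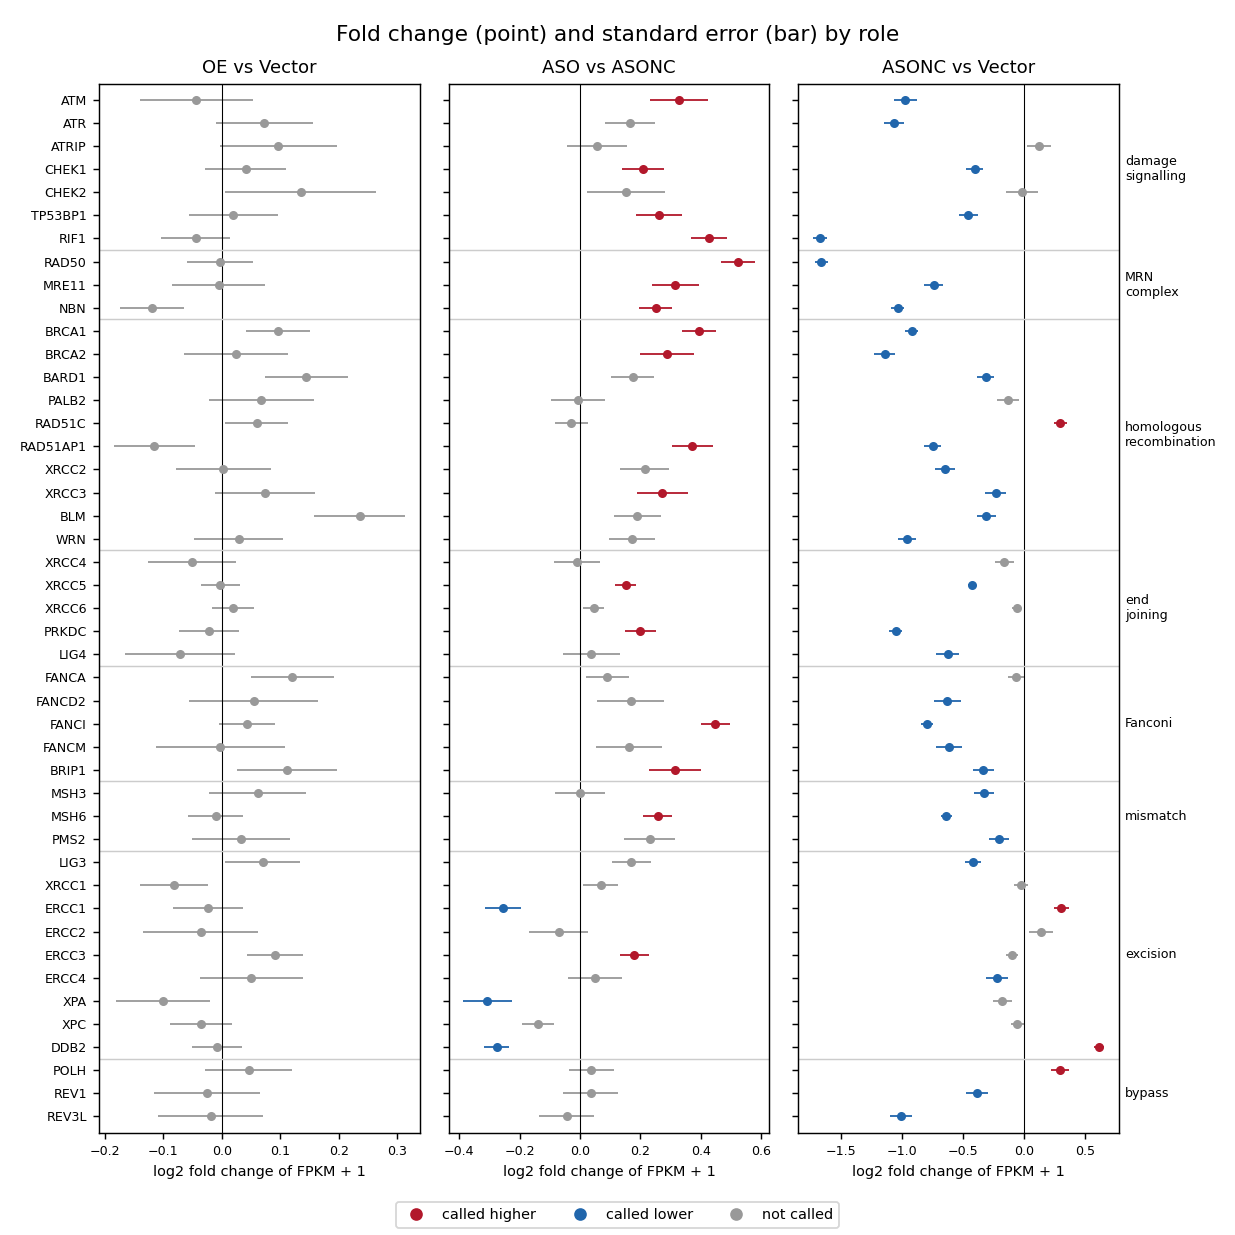
Log2 fold change of FPKM + 1 (horizontal axis, a scale for each panel) with its standard error for the 45 repair genes tested, in 3 comparisons and sorted by role. No gene is called in OE against Vector, 17 are called higher and 3 lower in ASO against ASONC, and 4 higher and 30 lower in ASONC against Vector.

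Overexpression was compared with its vector control to ask about the labelled overexpression of AFAP1-AS1. The level of that RNA was not analysed, so whether it rose is not shown here. No repair gene was called in OE against Vector (0 of 45, against 0.0657% of all genes called), and 1 had an unadjusted limma p below 0.05, beside 738 of all 10648 genes. Voom on recovered reads and every other alternative also called 0. That gene was BLM, a helicase that dissolves recombination intermediates, with 6.93 and 7.22 FPKM in OE and 5.78 and 5.93 in Vector (0.24 ± 0.08, limma adjusted p = 0.543). Its OE libraries both lay above its Vector libraries. NBN had 19.5 and 19.6 FPKM in OE and 21.5 and 21.2 in Vector (-0.12 ± 0.05, limma adjusted p = 0.718). RAD50 had 27.7 and 27.5 FPKM in OE and 27.7 and 27.6 in Vector (0.00 ± 0.06). ATM had 3.61 and 3.14 FPKM in OE and 3.48 and 3.51 in Vector, BRCA1 15.1 and 15.0 in OE and 14.0 and 14.0 in Vector, and PRKDC 61.2 and 56.9 in OE and 61.4 and 58.5 in Vector. All 45 of the 95% intervals lay within 0.5 of 0, and their outermost bounds were -0.28 and 0.42.

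The OE and ASO effects share no library, and their difference was tested in the same fit. The difference holds the ASO against ASONC effect with its sign reversed. Its calls are therefore not separate support for those in ASO against ASONC. Of the 45 repair genes 8 had different effects, 7 lower and 1 higher in the OE effect minus the ASO effect, against a background of 10.2% of all genes called, 4.02% lower and 6.19% higher. The 7 were RAD50 (-0.53 ± 0.08), RAD51AP1 (-0.49), RIF1 (-0.47), FANCI (-0.40), NBN (-0.37), BRCA1 (-0.30) and MSH6 (-0.27), and DDB2 was at 0.27. For RAD50, an ASO effect of 0.52 stood beside an OE effect of 0.00 (limma adjusted p = 0.00162). RAD50, RIF1, RAD51AP1 and FANCI passed under each of 16 alternatives. NBN lost its call with the length and GC correction (-0.22, limma adjusted p = 0.103). The BRCA1 call (limma adjusted p = 0.0328) was lost when any library was left out (limma adjusted p between 0.0698 and 0.0965). MSH6 (limma adjusted p = 0.0274) was lost without any library but OE replicate 1 or ASONC replicate 1 (between 0.0662 and 0.102). DDB2 (limma adjusted p = 0.0146) was lost without Vector replicate 1, ASO replicate 2 or ASONC replicate 1 (between 0.051 and 0.0547). ATM, ATR, CHEK1, CHEK2, BRCA2 and PRKDC did not pass, with values between -0.37 and -0.02, though voom on recovered reads called ATM, BRCA2 and PRKDC (limma adjusted p between 0.00227 and 0.0188).

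The 2 controls were also set against each other. This comparison uses the same ASONC libraries as ASO against ASONC, with opposite sign. Falls here and rises there are therefore not separate support. Against Vector, 30 of 45 repair genes were lower in ASONC and 4 were higher, 75.6% called, near the background of 68.6% of all genes called, 31.8% lower and 36.8% higher. The repair genes had a median log2 fold change of -0.39, with 6 of 45 above 0, beside 0.04 and 53.4% of all genes above 0. When every library was scaled to the same total (TPM scaling), the median of all genes was -0.15 and 31.7% of calls were higher, against 53.6% without it. The median of the repair genes was -0.56, with 38 lower and 1 higher, beside 70.1% of all genes called. The labels do not say whether both controls were handled together, so such a batch and the control treatment cannot be told apart.

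On the log2(FPKM + 1) scale RIF1 and RAD50 had the largest falls, while the ratio of mean FPKM was lowest for BRCA2 (0.265, against 0.276 for RIF1). RIF1 had 5.09 and 4.95 FPKM in ASONC and 18.0 and 18.4 in Vector (-1.67 ± 0.06, limma adjusted p = 1.67e-09). RAD50 had 8.28 and 7.89 FPKM in ASONC and 27.7 and 27.6 in Vector (-1.66 ± 0.06, limma adjusted p = 1.38e-09), and its ratio of means was 0.292. NBN had 10.3 and 9.57 FPKM in ASONC and 21.5 and 21.2 in Vector (-1.03), and MRE11 was at -0.74. In all of these the ASONC libraries lay below the Vector libraries.

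The genes of the large kinases fell too. ATR had 3.33 and 2.87 FPKM in ASONC and 7.74 and 7.41 in Vector (-1.07 ± 0.08, limma adjusted p = 3.79e-07). PRKDC had 28.0 and 28.8 FPKM in ASONC and 61.4 and 58.5 in Vector (-1.05 ± 0.05, limma adjusted p = 1.06e-08), and ATM 1.42 and 1.17 in ASONC and 3.48 and 3.51 in Vector (-0.97 ± 0.10, limma adjusted p = 2.86e-06). ATRIP, the binding partner of ATR, was not called: it averaged 2.81 ± 0.139 FPKM in ASONC and 2.5 ± 0.0801 in Vector (0.12, limma adjusted p = 0.289). CHEK1 fell (-0.40) and CHEK2 was at -0.01 without passing.

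Of the recombination genes 8 fell, led by BRCA2, with 0.702 and 0.829 FPKM in ASONC and 3.03 and 2.76 in Vector (-1.14 ± 0.09, limma adjusted p = 3.97e-07). WRN, a helicase with an exonuclease, had 3.5 and 3.26 FPKM in ASONC and 7.11 and 7.91 in Vector (-0.96), and BRCA1 was at -0.92. XRCC3 was called lower (-0.23, limma adjusted p = 0.0301) but not without Vector replicate 1 (limma adjusted p = 0.0577), Vector replicate 2 (0.126) or ASONC replicate 1 (0.299). RAD51C was the one recombination gene that rose, at 28.0 and 25.5 FPKM in ASONC and 21.6 and 21.5 in Vector (0.30 ± 0.05, limma adjusted p = 0.000376). FANCI (-0.79), FANCD2 (-0.63), FANCM (-0.61) and BRIP1 (-0.33) fell while FANCA, a core Fanconi gene, was not called (-0.06). All 3 mismatch genes fell: MSH6 had 30.3 and 28.3 FPKM in ASONC and 46 and 46.1 in Vector (-0.64), MSH3 was at -0.33 and PMS2 at -0.20. The PMS2 call (limma adjusted p = 0.0462) was lost without either Vector library, either ASO library or ASONC replicate 1 (limma adjusted p between 0.0563 and 0.268), and in a fit of the compared libraries alone (0.0548).

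Of the 9 excision repair genes tested 2 were higher and 2 lower, 44.4% called beside 68.6% of all genes, with a median of -0.06. DDB2 had 98.9 and 94.0 FPKM in ASONC and 61.2 and 64.1 in Vector (0.61 ± 0.04, limma adjusted p = 1.27e-07), and ERCC1 rose by 0.31. LIG3, the ligase of single-strand break repair, fell (-0.42) and XRCC1, its scaffold, was not called (-0.03). ERCC4, the nuclease partner of ERCC1, was called lower (-0.22, limma adjusted p = 0.0427), but lost this call without any one of the Vector, ASO or ASONC libraries (limma adjusted p between 0.0513 and 0.164). The bypass genes split: REV3L, the catalytic subunit of polymerase zeta, had 1.52 and 1.64 FPKM in ASONC and 4.20 and 4.19 in Vector (-1.01 ± 0.09, limma adjusted p = 1.25e-06), REV1 fell (-0.39), and POLH, polymerase eta, rose to 3.94 and 3.71 FPKM in ASONC, against 2.97 and 2.89 in Vector (0.29 ± 0.08, limma adjusted p = 0.00394). The rises of RAD51C, ERCC1 and POLH were not called with TPM scaling (0.09, 0.10 and 0.13), which left DDB2 as the 1 gene called higher.

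Knockdown libraries also stood below Vector in most of these genes. Against Vector, 26 of 45 were lower in ASO and 3 higher, 64.4% called, near the background of 62.9% of all genes called, 28.8% lower and 34.1% higher. TPM scaling gave 32 lower and 2 higher, with an all-gene median of -0.12 and 63.1% of all genes called, 31.9% of these calls higher. This comparison shares its ASO libraries with ASO against ASONC and its Vector libraries with ASONC against Vector. Those comparisons in turn share the ASONC libraries. The values are therefore given side by side and not as separate support. RIF1 was at -1.25, RAD50 at -1.14, REV3L at -1.05, ATR at -0.90, PRKDC and BRCA2 at -0.85, and DDB2 at 0.34. In ratios of mean FPKM, RAD50 in ASO was 1.49 times ASONC and 0.436 times Vector, RIF1 1.41 and 0.390 times, BRCA2 1.51 and 0.399 times, and FANCI 1.38 and 0.781 times. REV3L was at 0.954 times ASONC and 0.359 times Vector. BRIP1 in ASO was 0.984 times Vector and not called, and RAD51C (0.27) and POLH (0.33) were again above Vector.

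Transcript length and base composition, which the choice of genes did not use, went with these fold changes. The tested repair genes had longer transcripts than all genes tested (median of the longest GENCODE transcript 4743 bases, against 3670) and a lower GC content (median 42.2%, against 48.3%). Of the 23 repair genes with transcripts of 4743 bases or more, 22 fell and 0 rose in ASONC against Vector, and 12 rose and 0 fell in ASO against ASONC. Of the 22 shorter ones, 8 fell and 4 rose in ASONC against Vector, and 5 rose and 3 fell in ASO against ASONC. All genes shifted with length in the same directions. From the shortest to the longest of 20 length bins, their median went from 0.507 to -0.417 in ASONC against Vector. In ASO against ASONC it went from -0.088 to 0.083. The share of all genes called at each length was not counted, so these counts cannot be called particular to repair genes. As a description across the 45 genes, which share the libraries, Spearman's rho of fold change with length was 0.51 in ASO against ASONC and -0.71 in ASONC against Vector, and 0.27 and -0.51 across all genes. With GC content it was -0.38 and 0.65, and -0.45 and 0.52 across all genes.

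**Figure D3:**
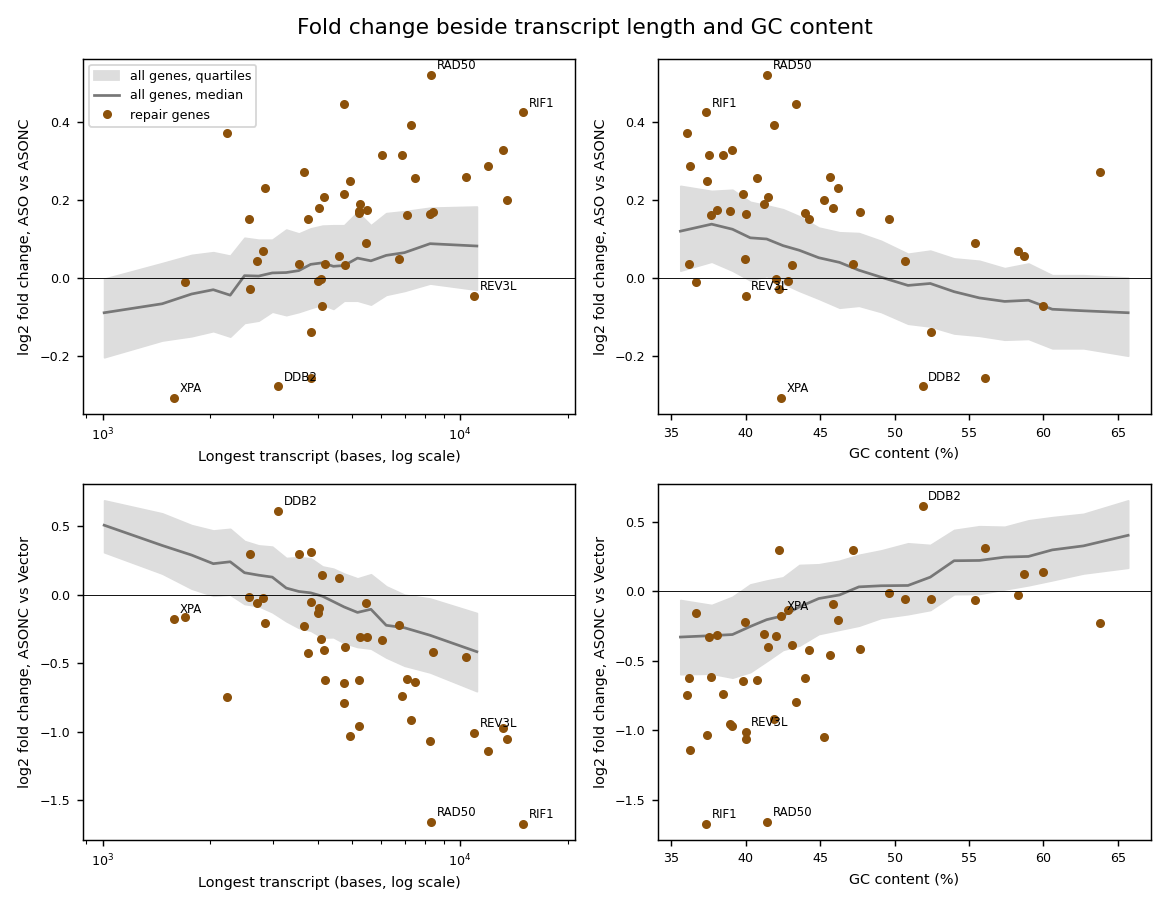
Log2 fold change of each repair gene (points) against its longest transcript in bases (log axis) or its GC content in percent, for ASO against ASONC (top) and ASONC against Vector (bottom). The grey line and band are the median and quartiles of all genes tested in 20 bins. RAD50 lies outside the band at its length in both comparisons, and DDB2 lies outside it on the other side.

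After each library was corrected for length and GC across all genes, 8 of the 17 rises in ASO against ASONC and all 3 falls were still called, beside 16.7% of all genes. The 8 were RAD50 (0.41), FANCI (0.37), XRCC3 (0.37), RIF1 and BRCA1 (0.28 each), RAD51AP1 (0.28), PRKDC (0.14) and XRCC5 (0.10). ATM, CHEK1, TP53BP1, MRE11, NBN, BRCA2, BRIP1, MSH6 and ERCC3 were not, with values between 0.12 and 0.20 and limma adjusted p between 0.0517 and 0.329. Their signs did not change. In ASONC against Vector, 25 genes were called lower and 5 higher after the correction, beside 59.3% of all genes, and 21 of the 30 falls and all 4 rises were shared. RAD50 (-1.19) and RIF1 (-0.998) still had the lowest log2 values. Of the genes called without the correction BARD1, BLM, BRIP1 and ERCC4 changed sign, and ERCC4 was called higher (0.23, limma adjusted p = 0.0291). Over all 17 alternatives tried, RIF1, RAD50, BRCA1, RAD51AP1 and FANCI were called higher in ASO against ASONC in every one, and DDB2 lower.

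**Figure D4:**
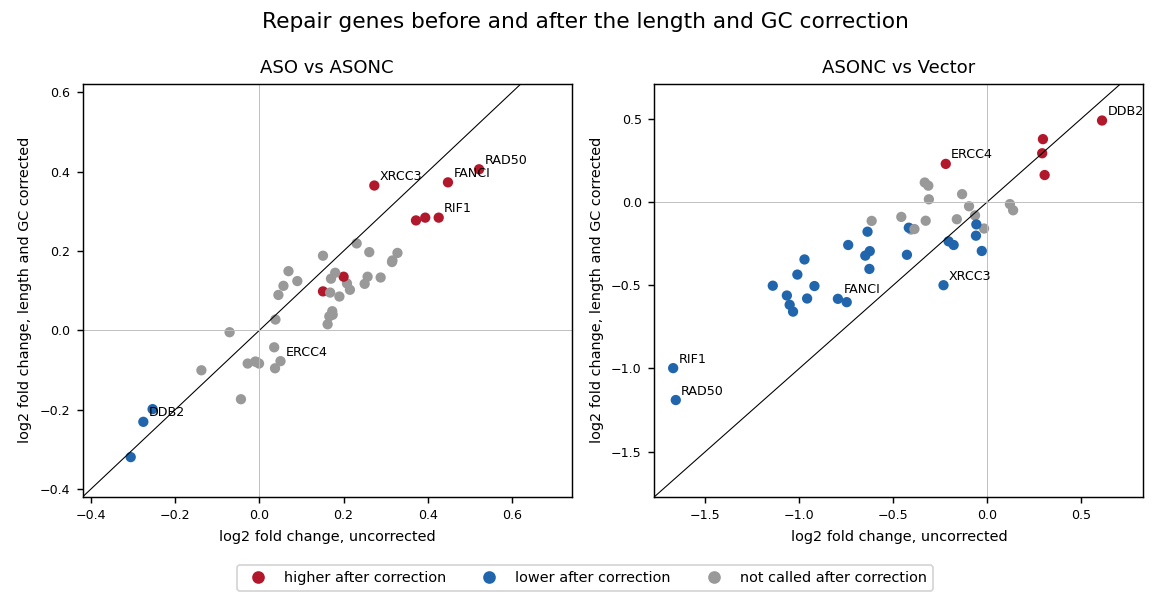
Log2 fold change of the repair genes without (horizontal axis) and with (vertical axis) the length and GC correction, in ASO against ASONC and in ASONC against Vector, with the line of equal values. Colours give the call after the correction: most genes move towards 0, RAD50 and RIF1 keep the lowest values on the right, and XRCC3 moves away from 0 in both panels.

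A wider list of 110 other repair genes, of which 104 were tested, was counted in the same fit. In ASO against ASONC 23 rose and 5 fell, 26.9% called beside 22.2% of all genes, with a median of 0.08. HLTF, a bypass ligase (0.52 ± 0.06, limma adjusted p = 0.000143), TOPBP1, an activator of ATR (0.47), and USP1, the enzyme that resets the Fanconi clamp (0.44), had the largest rises on the log2(FPKM + 1) scale. SFR1, a recombination accessory gene, had the largest fall (-0.64 ± 0.07, limma adjusted p = 8.2e-05). In ASONC against Vector 44 of the 104 fell and 31 rose (median -0.08), 72.1% called and near the 68.6% of all genes. In OE against Vector limma called 0, with 6 of the 104 at an unadjusted p below 0.05, beside 738 of all 10648 genes. In the difference of effects 11 were lower and 2 higher, 12.5% called and near the 10.2% of all genes.

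Markers of S and G2/M phase and targets of p53 moved in the same comparisons. ASO against ASONC and ASONC against Vector use the same ASONC libraries, with opposite sign. Opposite directions in these comparisons are therefore not separate support. Of 23 phase markers 15 rose and 0 fell in ASO against ASONC (median 0.21), 65.2% called beside 22.2% of all genes. In ASONC against Vector 5 rose and 14 fell (median -0.21), 82.6% called beside 68.6%. Their summed level was 1613 and 1633 FPKM in ASO and 1412 and 1374 in ASONC, against 1646 and 1662 in OE and 1588 and 1608 in Vector. Of 17 p53 targets, 0 rose and 11 fell in ASO against ASONC (median -0.28), 64.7% called beside 22.2% of all genes. In ASONC against Vector 11 of them rose and 3 fell (median 0.46), 82.4% called beside 68.6%. Their summed level was 761 and 777 FPKM in ASO and 1095 and 1118 in ASONC, against 688 and 693 in OE and 687 and 697 in Vector. DDB2, XPC and POLH are known p53 targets in human cells. DDB2 followed that direction in both comparisons, which the shared ASONC libraries tie together. XPC passed in neither. POLH passed in ASONC against Vector but was not called in ASO against ASONC (0.04). The part of phase and of p53 activity in the repair genes was not tested.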

How the data were processed

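RNA was measured in 8 libraries, 2 per group. Per the labels, the authors deposited FPKM values, which scale fragments by gene length and by library size. Tools named in the submitters' processing notes are featureCounts, HISAT2, HTSeq and R 3.2.0, with the build hg38 (GRCh38). Their roles, the annotation and the strand setting were not stated there, so antisense and overlapping genes cannot be separated. No other column was present.

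The 10648 genes averaging 1 FPKM or more were fitted as log2(FPKM + 1), using limma 3.58.1 (R 4.3.3) with lmFit, contrasts.fit and a two-sided eBayes with trend. All 4 groups entered 1 fit with 4 residual degrees of freedom. On this scale the change of low genes is understated. The threshold for a call was a Benjamini-Hochberg adjusted p of 0.05 over all genes tested. An exact permutation test of 2 against 2 libraries cannot reach that threshold. For 17055 genes whole reads came out within 0.02 reads, up to a common factor. Recovered reads of the repair genes ran from 20 to 29774 per library. Counts of the 2 libraries of a group differed beyond sampling noise, with a chi-square of 5.11 to 5.85 for each degree of freedom, and both were kept. Fits and recovery were tested on simulated data. Lengths and GC came from GENCODE release 29 (GRCh38) and covered 99.8% of genes tested.

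The repair genes, the lists and the tests were chosen with earlier results of these data known. Genes were picked for fuller description by a rule (ATM, ATR, CHEK1, CHEK2, BRCA1, BRCA2, PRKDC and, per role and comparison, up to 2 called genes in each direction with the largest change, or else the smallest p), and any others after their values were seen. Alternatives were a pseudocount of 0.1, no filter, a minimum of 5 FPKM, median-of-ratios and TPM scaling, the compared libraries alone, a replicate block, the length and GC correction (additive splines per library), voom on recovered reads, and leaving out each library.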

Additional observations from a re-analysis of the deposited data

Results flagged for a closer look

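The OE and ASO effects differed by the test of their difference in 8 repair genes, of which RIF1, RAD50, RAD51AP1 and FANCI were called in every alternative. With the length and GC correction NBN (-0.222), BRCA1 (-0.175) and MSH6 (-0.132) were not called (limma adjusted p between 0.103 and 0.247). DDB2 was still called there (0.223) but not without some single libraries. The OE effect minus the ASO effect was -0.47 for RIF1 (-0.04 in OE, 0.43 in ASO), -0.53 for RAD50 (0.00 and 0.52), -0.37 for NBN (-0.12 and 0.25), -0.30 for BRCA1 (0.10 and 0.39), -0.49 for RAD51AP1 (-0.11 and 0.37), -0.40 for FANCI (0.04 and 0.45), -0.27 for MSH6 (-0.01 and 0.26) and 0.27 for DDB2 (-0.01 and -0.28), all on the log2(FPKM + 1) scale.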

How the results depend on the processing

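Counts of repair genes called in OE against Vector were 0 under all 17 alternatives. In ASO against ASONC the rises were 17 and became 8 with the length and GC correction, and between 8 and 16 when 1 library was left out; the falls were 3, and between 1 and 3 when 1 library was left out. In ASONC against Vector the 4 rises became 1 with TPM scaling, and the 30 falls became 19 with a minimum mean of 5 FPKM, which leaves 28 repair genes tested. In ASO against Vector the 3 rises became 5 with the length and GC correction. In the difference of effects the 1 rise became 2 with voom on recovered reads and between 0 and 1 when 1 library was left out, and the 7 falls became 4 with the length and GC correction and 13 with voom. The other counts stayed within 1.5 times, among them the falls in ASO against Vector. With the length and GC correction, genes called lower in ASONC against Vector changed sign in 4 cases (BARD1 0.10, BLM 0.018, BRIP1 0.12 and ERCC4 0.23). In ASO against Vector TP53BP1, called lower before, stood at 0.11, and BRIP1, not called before, changed sign and was called higher at 0.29. Other genes called neither before nor after also changed sign. The share of all calls that were higher was 62.0% with median-of-ratios and 66.4% with TPM scaling in ASO against ASONC (50.8% without), 31.9% with TPM in ASO against Vector (54.2% without), and 48.0% and 42.6% in the difference of effects (60.6% without). Apart from the filter, the cause was not tested.

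The replicate numbers did not pair the libraries: deviations of same-numbered libraries correlated between -0.061 and 0.062 over the 6 pairs of groups. With a replicate block, 17 repair genes rose and 3 fell in ASO against ASONC, 4 rose and 29 fell in ASONC against Vector, 3 rose and 26 fell in ASO against Vector, and the difference of effects had 1 higher and 7 lower. PMS2 in ASONC against Vector was not called with the block (limma adjusted p = 0.0536). Of the calls, 20 of 34 in ASONC against Vector and 18 of 29 in ASO against Vector were kept in every alternative. With 2 libraries a group, small changes are measured poorly, in low genes and in others. Standard errors in ASO against ASONC were 0.13 for CHEK2, 0.11 for FANCD2 and FANCM, and 0.09 for BRCA2, a low gene whose change this scale understates.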
